A study of Mus musculus with 9 samples.

Results

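A set of 10 genes of prostaglandin and leukotriene metabolism was followed in the medial prefrontal cortex (mPFC) of stressed and unstressed mice, chosen by gene symbol from the 24532 genes listed for every mouse. They are the cyclooxygenases Ptgs1 and Ptgs2, the prostaglandin synthases Ptgds, Ptges and Ptges2, the prostaglandin-degrading enzyme Hpgd, the leukotriene genes Alox5ap and Ltc4s, and the prostaglandin E2 receptor genes Ptger3 and Ptger4. The mice were C57BL/6 and 11 weeks old by the sample labels. The study's methods describe them as male C57BL/6J from matings of Fkbp5+/- parents and give a younger age. The methods do not say whether that age was the age before the 3 weeks of restraint, so the ages need not conflict. CT mice were wild type and unstressed, WT_ST mice were wild type and exposed to chronic restraint stress, and KO_ST mice were Fkbp5-/- and exposed to the same stress. CT mice went without food and water during the daily restraint hours, as the stressed mice did. Each group had 3 mice and there was no unstressed Fkbp5-/- group, so KO_ST against CT differs in both genotype and stress, and these cannot be told apart. Every library is bulk RNA, in which fewer cells of a type and less RNA per cell cannot be told apart.

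Prostaglandins and leukotrienes are lipid signals made from arachidonic acid that is released from membranes. Cyclooxygenases turn it into prostaglandin H2, from which terminal synthases make prostaglandin D2, prostaglandin E2 and related products, while leukotrienes arise through a lipoxygenase that needs the Alox5ap protein to receive its substrate. In the mouse brain, Ptgs2 is known from excitatory neurons, where activity raises it, Ptgs1, Alox5ap and Ltc4s from microglia and other macrophages, and Ptgds from leptomeningeal cells and oligodendrocytes. Ptges is the inducible prostaglandin E synthase and is known from brain endothelial cells in inflammation, Ptges2 is expressed in most cells, and Ptger3 is known from neurons. No cell type is assigned here to Hpgd or Ptger4.

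Fkbp5, the targeted gene, lay between 3.59 and 4.69 FPKM (fragments scaled for transcript length and library depth) in KO_ST, below the 6.46 to 7.61 of CT and the 9.47 to 10.3 of WT_ST. Reads on the gene thus remained in KO_ST, with a mean of 4.24 FPKM against 7.11 in CT. A value per gene does not tell which part of the transcript they cover. Total reads on genes ranged from 43778471 to 61150128 per mouse. Differences were tested with limma on quantile-normalized log2(FPKM+1) over the 14370 genes with a mean of at least 30 reads, and a gene was called where its unadjusted p was under 0.05 and its fold change exceeded 1.2. The p-values printed are adjusted over all genes tested. The pseudocount of 1 makes fold changes of genes with low FPKM smaller than those of their reads. All 10 genes passed the filter on reads, Ptger4 with a mean of 34.8 reads and Ptgds with 14195. None of the 10 reached an adjusted p under 0.05 in limma in any comparison, where 5, 9 and 22 of all genes did so (0.0348%, 0.0626% and 0.153%) for WT_ST against CT, KO_ST against CT and KO_ST against WT_ST. At an unadjusted p under 0.05 there were 3, 2 and 1 of the 10, against 7.86%, 9.46% and 5.82% of all genes.

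FPKM is scaled for transcript length, so that levels can be set beside each other. Ptgds stood highest with a mean of 341 FPKM over the 9 mice, followed by Ptges2 at 20.05 and Ptgs1 at 5.89, and the ranges of these genes did not overlap with each other. The levels of Ptgs2, Alox5ap, Hpgd and Ltc4s had means between 2.54 and 3.24 FPKM and overlapped. Ptger3 at 1.79 FPKM and Ptges at 1.64 overlapped with each other and with Hpgd, Alox5ap and Ltc4s, and Ptger4 was lowest at 0.205 FPKM. Ptges2 was the steadiest, with its highest mouse 1.11 times its lowest, while Ptgds spanned 6.35 times.

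**Figure D1:**
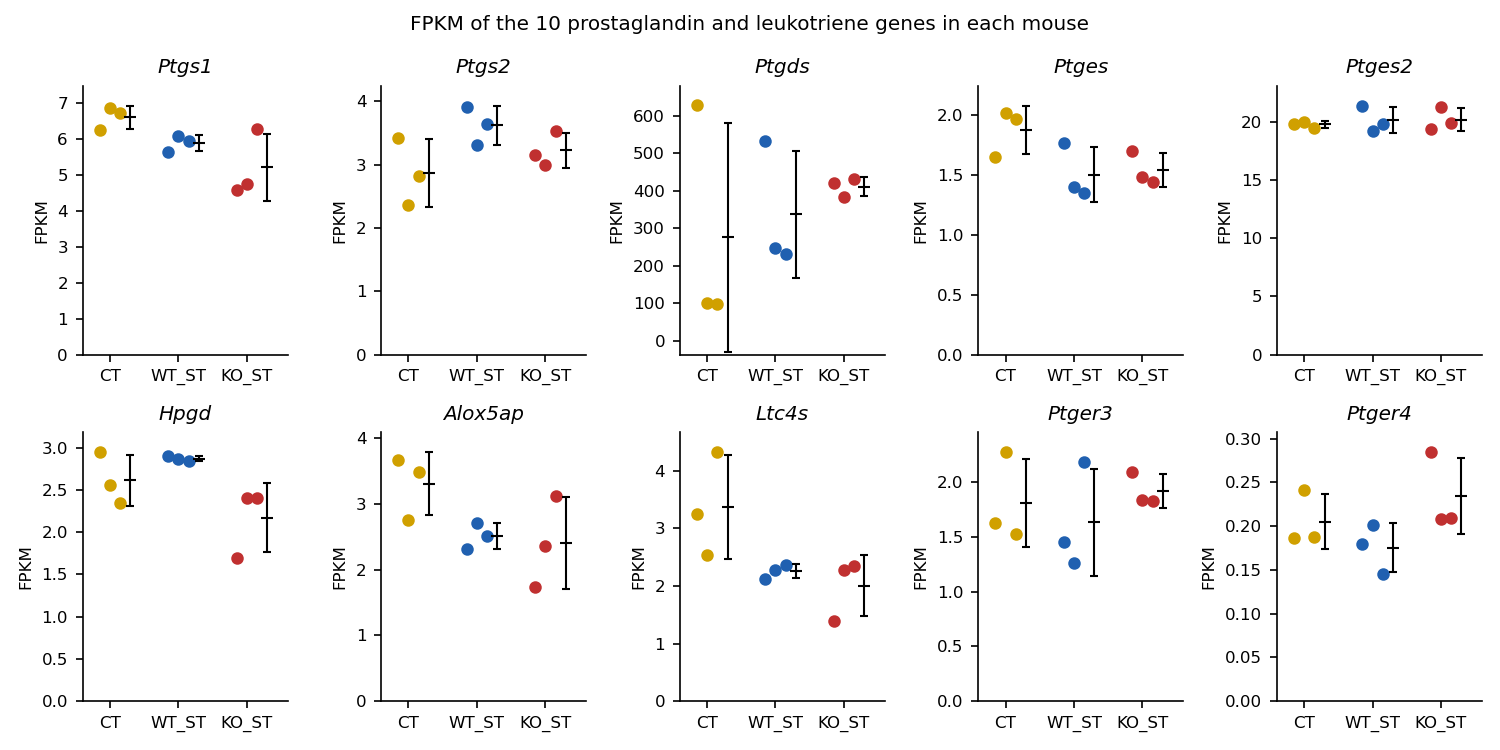
FPKM of each gene by group (CT, WT_ST, KO_ST), with 1 point per mouse in replicate order and, at its right, the mean with a bar of 1 SD (n = 3). Ptgs1, Alox5ap and Ltc4s were lower in each WT_ST mouse than in each CT mouse, and Ptgds was 629 FPKM in 1 CT mouse against 100.2 and 99.0 in the other CT mice, so that its SD bar reaches below 0.

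In WT_ST against CT, 3 of the 10 genes were called, the leukotriene genes Alox5ap and Ltc4s lower and Ptgs2 higher. Their fold changes were 0.833, 0.769 and 1.217. With a threshold of 1.2 in either direction, Alox5ap lay at the threshold and Ptgs2 close to it. Over all genes tested, 2.47% were called in this comparison, 1.16% higher and 1.32% lower. An ordinary linear model without moderated variance called 0 of the 10 genes in each of the 3 comparisons. The groups did not overlap for 3 of the 10, Ptgs1, Alox5ap and Ltc4s, all lower in WT_ST, against 14.0% of all genes in either direction and 6.46% lower. In KO_ST against CT, 2 of the 10 were called, Ltc4s and Ptgs1, both lower, where 3.56% of all genes were called and 2.03% were called lower. The fold changes were 0.704 for Ltc4s and 0.829, close to the threshold, for Ptgs1. Ltc4s, lower in KO_ST, was the 1 gene without overlap there, against 15.8% of all genes in either direction and 7.88% lower. In KO_ST against WT_ST, 1 of the 10 was called, Hpgd, lower in KO_ST, where 1.05% of all genes were called lower. Its fold change of 0.818 was also close to the threshold. Hpgd, lower in KO_ST, and Ptger4, higher in KO_ST, did not overlap between these groups, against 11.0% of all genes, 5.97% lower and 4.99% higher. The median log2 fold change of the 10 genes was -0.05, -0.05 and -0.02 in the 3 comparisons, beside 0.00338, 0.00243 and -0.00147 over all genes tested. The comparisons share mice, CT in the first pair and WT_ST or KO_ST in the others, and are not independent of each other.

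**Figure D2:**
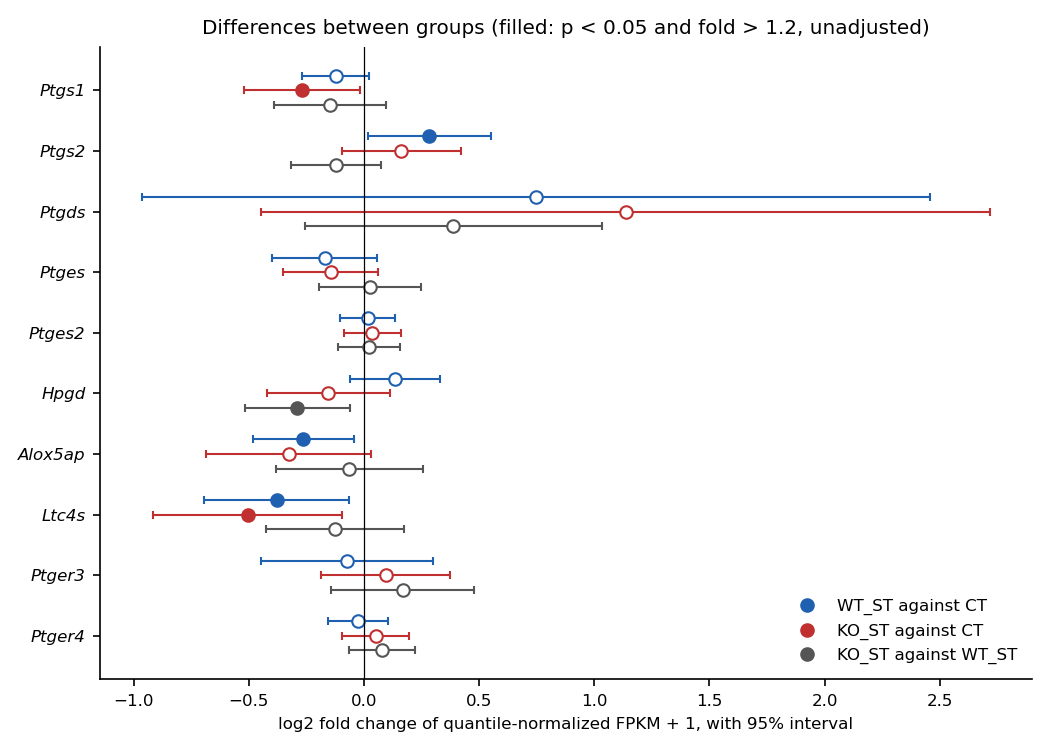
Log2 fold change of quantile-normalized log2(FPKM+1) for each gene in the 3 comparisons, with its 95% confidence interval from limma. Filled points are called genes (p under 0.05 before adjustment, fold above 1.2), which were 3 genes for WT_ST against CT, 2 for KO_ST against CT and 1 for KO_ST against WT_ST.

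Ptgs1, the constitutive cyclooxygenase, lies at chr2:36216742-36258593 (GRCm38). It was measured at 6.24, 6.84 and 6.71 FPKM in CT, at 5.62, 6.06 and 5.93 in WT_ST, and at 4.58, 4.74 and 6.28 in KO_ST. Each WT_ST mouse was below each CT mouse, and KO_ST held both the lowest mice and 1 mouse within the CT range. The log2 fold change was -0.27 in KO_ST against CT (standard error 0.107, 95% interval -0.52 to -0.02, limma adjusted p = 0.506). In WT_ST against CT it was -0.12 (standard error 0.0620, limma adjusted p = 0.673) and did not meet the threshold, and between the stressed groups it was -0.15 (95% interval -0.39 to 0.10). The call in KO_ST against CT was lost when CT replicate 1, 2 or 3 or KO_ST replicate 1 or 2 was left out, with log2 fold changes from -0.39 to -0.20 over all such fits. It was also lost without a filter on reads (limma adjusted p = 0.568).

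Ptgs2, the inducible cyclooxygenase, lies at chr1:150100031-150108234. Its FPKM was 3.42, 2.36 and 2.83 in CT, 3.92, 3.30 and 3.64 in WT_ST, and 3.15, 2.99 and 3.54 in KO_ST. WT_ST was higher except that its lowest mouse lay under the highest CT mouse, and KO_ST lay between the means of the other groups. Ptgs2 rose in WT_ST against CT by 0.28 on the log2 scale (standard error 0.113, 95% interval 0.02 to 0.55, limma adjusted p = 0.635). In KO_ST against CT the log2 difference was 0.16 (limma adjusted p = 0.666) and between the stressed groups it was -0.12 (limma adjusted p = 0.935). The call in WT_ST against CT was lost without CT replicate 2 or 3 or WT_ST replicate 1 or 3, with log2 fold changes from 0.20 to 0.39 over all such fits. It was also lost without quantile normalization (0.26, limma adjusted p = 0.665) and without a filter on reads (0.28, limma adjusted p = 0.674). The bases from the annotated RefSeq start of Ptgs2 onward (GRCm38.p6, chr1:150100031-150100060, plus strand) are shown because they hold overlapping matches to a cAMP response element core (TGACGT) and an E-box (CACGTG). These motifs are known to be bound by CREB and by basic helix-loop-helix factors. Whether transcription began at that base was not tested. The capitals mark both matches, the first read on the opposite strand.
Ptgs2: agagtcaccactACGTCACGTGgagtccgc

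Ptgds, prostaglandin D2 synthase of the brain, lies at chr2:25466709-25470110 and is also secreted into cerebrospinal fluid. It was measured at 629, 100.2 and 99.0 FPKM in CT, at 533, 246 and 232 in WT_ST, and at 420, 383 and 431 in KO_ST. A single CT mouse and a single WT_ST mouse, both numbered 1, were the highest of the 9, and the 3 KO_ST mice lay close together. The log2 fold change was 0.75 in WT_ST against CT (standard error 0.725, limma adjusted p = 0.809), 1.14 in KO_ST against CT (standard error 0.671, limma adjusted p = 0.618) and 0.39 in KO_ST against WT_ST (standard error 0.275, limma adjusted p = 0.940). Without CT replicate 1, it was 1.64 in WT_ST against CT (limma adjusted p = 0.355) and 2.03 in KO_ST against CT (limma adjusted p = 0.000277). Without CT replicate 2 or 3 it was smaller, at 0.31 and 0.29 in WT_ST against CT and 0.70 and 0.68 in KO_ST against CT, and without WT_ST replicate 1 it was 0.38 in WT_ST against CT. In KO_ST against WT_ST it was 0.75 without WT_ST replicate 1 (limma adjusted p = 0.0132), and 0.23 and 0.19 without WT_ST replicate 2 or 3. Each mouse was left out in turn, and the fits without CT replicate 1 or WT_ST replicate 1, with 2 mice left in that group, were those that changed a Ptgds call. With edgeR on the reads of all mice, the log2 fold changes against CT were smaller, 0.29 in WT_ST (adjusted p = 0.939) and 0.59 in KO_ST (adjusted p = 0.804).

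The summed FPKM of 8 leptomeningeal fibroblast markers (Dcn, Lum, Col1a1, Col1a2, Igf2, Slc6a13, Slc13a4 and Ogn) was 26.2 in CT replicate 1 and 26.7 in WT_ST replicate 1, and between 14.1 and 20.4 in the other mice. The sum ranged from 14.1 to 26.2 in CT, 14.5 to 26.7 in WT_ST and 16.6 to 20.4 in KO_ST, and no marker of the list was at 0 in every mouse. Ptgds and the mean of this list had a Pearson r of 0.79 over the 9 mice, and 0.87 for deviations from the group means. The corresponding r was 0.81 and 0.84 with the neuronal markers, and 0.77 and 0.85 with neuronal activity genes. As a percentage of the marker sum, Ptgds was 2400.3, 617 and 701 in CT, 1995, 1702 and 1545 in WT_ST, and 2537, 2214 and 2113 in KO_ST. On that scale CT replicates 2 and 3 were still the lowest mice, and each KO_ST mouse was above each WT_ST mouse. With 7 oligodendrocyte markers, among them Mbp and Mog, r was -0.26, and their summed FPKM ranged from 375 to 710.1 in CT, 396 to 636 in WT_ST and 423 to 572 in KO_ST. Of the leptomeningeal markers, 0 of 8 were called in WT_ST against CT and 1 of 8, lower, in KO_ST against CT, and of the oligodendrocyte markers 0 of 7 in either. The genes whose pattern over the 9 mice was most like that of Ptgds were Aebp1 (r = 0.98), Fmod (0.97), which encodes a proteoglycan of the extracellular matrix, and Slc22a6 (0.97), an organic anion transporter. Summed FPKM of 6 markers of choroid plexus epithelium, another known source of Ptgds, was at most 1.303. Whether the share of leptomeninges in a dissection set the Ptgds level was not tested.

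Ptges, the inducible prostaglandin E2 synthase (chr2:30889471-30931020, overlapping 2 annotated genes not analysed here), had 1.65, 2.02 and 1.97 FPKM in CT, 1.77, 1.40 and 1.35 in WT_ST, and 1.70, 1.48 and 1.44 in KO_ST. The lowest CT mouse overlapped with the highest mouse of both stressed groups. WT_ST differed from CT by -0.17 on the log2 scale (95% interval -0.40 to 0.06, limma adjusted p = 0.693) and KO_ST differed from CT by -0.15 (95% interval -0.35 to 0.06, limma adjusted p = 0.621), and the stressed groups differed by 0.03. Ptges2, a membrane-associated prostaglandin E2 synthase (chr2:32395890-32402740), had 19.9, 20.03 and 19.5 FPKM in CT, 21.4, 19.2 and 19.8 in WT_ST, and 19.4, 21.3 and 19.9 in KO_ST. The groups overlapped throughout, and the 95% intervals of its log2 fold changes ran from -0.10 to 0.13, from -0.09 to 0.16 and from -0.11 to 0.16 in the 3 comparisons, the narrowest of the 10 genes in each.

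Hpgd (chr8:56294552-56321046) encodes the dehydrogenase that inactivates prostaglandins. It was measured at 2.94, 2.55 and 2.34 FPKM in CT, at 2.90, 2.86 and 2.85 in WT_ST, and at 1.70, 2.41 and 2.40 in KO_ST. Each KO_ST mouse was below each WT_ST mouse, the WT_ST mice had an SD of 0.0304 FPKM (n = 3), and the CT mice overlapped with both groups. Hpgd fell in KO_ST against WT_ST by 0.29 on the log2 scale (standard error 0.0974, 95% interval -0.52 to -0.06, limma adjusted p = 0.812). Against CT its log2 fold change was 0.13 in WT_ST (limma adjusted p = 0.708) and -0.15 in KO_ST (limma adjusted p = 0.688). Without KO_ST replicate 1 the log2 fold change against WT_ST was -0.19 and without WT_ST replicate 1 it was -0.27 (limma adjusted p = 0.916), and the call was lost in both. The genes with the most similar pattern over the 9 mice were Man2b1, a lysosomal mannosidase (r = 0.94), Rab32 (0.92) and Ergic1 (0.92). The Hpgd start in RefSeq (GRCm38.p6, chr8:56294552-56294581, plus strand) is shown because it was the 1 window among those of the 9 genes matched with a TATA box (TATAAA), in capitals, here just after the annotated start.
Hpgd: gggcTATAAAagctgctgcggcgtccagac

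Alox5ap (chr5:149265004-149288153) encodes the membrane protein that presents arachidonic acid to the lipoxygenase of leukotriene synthesis. It had 3.67, 2.76 and 3.48 FPKM in CT, 2.32, 2.72 and 2.51 in WT_ST, and 1.73, 2.35 and 3.13 in KO_ST. Each WT_ST mouse was below each CT mouse, and the KO_ST mice were the most spread. Alox5ap fell in WT_ST against CT by 0.26 on the log2 scale (standard error 0.0933, 95% interval -0.48 to -0.04, limma adjusted p = 0.635). This lay at the fold threshold of the call. In KO_ST against CT the log2 fold change was -0.33 (standard error 0.152, limma adjusted p = 0.546) and -0.19 without KO_ST replicate 1, and between the stressed groups it was -0.06 (95% interval -0.38 to 0.26). The call in WT_ST against CT was lost without CT replicate 1 (-0.20) or 3 (-0.24) or WT_ST replicate 1 (-0.24) or 3 (-0.26), in 1 fit over all 9 mice (-0.26, limma adjusted p = 0.646) and with DESeq2 on the reads (-0.38, adjusted p = 0.742). The fit over all 9 mice instead called Alox5ap in KO_ST against CT, at the same log2 fold change of -0.33 (limma adjusted p = 0.404).

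Ltc4s (chr11:50236461-50238532), the synthase that joins glutathione to leukotriene A4, was the 1 gene of the 10 called in both stressed groups against CT. Its FPKM was 3.25, 2.53 and 4.32 in CT, 2.12, 2.28 and 2.37 in WT_ST, and 1.39, 2.27 and 2.35 in KO_ST. Each stressed mouse was below each CT mouse, and the 2 stressed groups overlapped. Ltc4s fell in WT_ST against CT by 0.38 on the log2 scale (standard error 0.134, 95% interval -0.69 to -0.06, limma adjusted p = 0.635). It fell in KO_ST against CT by 0.51 (standard error 0.175, 95% interval -0.92 to -0.09, limma adjusted p = 0.499), a comparison with the same CT mice. Between KO_ST and WT_ST the log2 fold change was -0.13 (95% interval -0.43 to 0.17, limma adjusted p = 0.951). Reads on Ltc4s averaged 86.3 per mouse, and with edgeR on the reads the log2 fold changes against CT were -0.56 in WT_ST (adjusted p = 0.662) and -0.69 in KO_ST (adjusted p = 0.533). In WT_ST against CT, the call was lost without CT replicate 1 (-0.39), WT_ST replicate 1 (-0.36) or WT_ST replicate 2 (-0.38), at log2 fold changes close to that of all mice, and without CT replicate 3, where it was -0.24. In KO_ST against CT, it was lost without CT replicate 1 (-0.51), CT replicate 3 (-0.37) or KO_ST replicate 1 (-0.36).

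Ptgs1, Alox5ap and Ltc4s varied together with microglial markers. The summed FPKM of 10 such markers (Cx3cr1, P2ry12, Tmem119, Csf1r, Aif1, C1qa, C1qb, C1qc, Trem2 and Siglech) ranged from 158 to 204 in CT, from 129 to 146 in WT_ST and from 73.1 to 160.1 in KO_ST, and no marker was at 0 in every mouse. Of the 10, 7 were called lower in WT_ST against CT, 6 in KO_ST against CT and 1, P2ry12, in KO_ST against WT_ST, with median log2 fold changes of -0.32, -0.64 and -0.37. The r with the mean of the list over the 9 mice was 0.87 for Ptgs1, 0.88 for Alox5ap and 0.90 for Ltc4s, and 0.74, 0.81 and 0.84 for deviations from the group means. For Ptgs1, those deviations had a higher r with the astrocyte (0.88), endothelial (0.76) and mural (0.75) lists. These values are descriptions over mice that share groups.

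As a percentage of the microglial sum, Ltc4s was 1.91 ± 0.276 (SD, n = 3) in CT, 1.67 ± 0.196 in WT_ST and 1.79 ± 0.281 in KO_ST. Alox5ap was 1.91 ± 0.320 in CT, 1.86 ± 0.240 in WT_ST and 2.13 ± 0.215 in KO_ST. Ptgs1 was 3.83 ± 0.514 in CT, 4.33 ± 0.424 in WT_ST and 4.78 ± 1.29 in KO_ST. On this scale the groups overlapped for each of the 3 genes. Hpgd, on the same scale, was 1.53 ± 0.346 in CT, 2.11 ± 0.116 in WT_ST and 1.98 ± 0.425 in KO_ST, so that KO_ST overlapped with WT_ST and each WT_ST mouse was above each CT mouse, and its r with the microglial list was 0.49 over the 9 mice and 0.45 for deviations from the group means. Other lists also moved with them, with r over the 9 mice of 0.68 to 0.77 for 7 astrocyte markers and 0.75 to 0.81 for 3 markers of oligodendrocyte precursors, and 0.53 to 0.88 and 0.56 to 0.72 for deviations from the group means. The astrocyte sum was 729 to 796 FPKM in CT, 653 to 686 in WT_ST and 664 to 766 in KO_ST, with 2 of 7 markers called lower in WT_ST against CT and 0 of 7 in KO_ST against CT. The precursor sum was 20.6 to 26.6, 17.6 to 20.5 and 16.5 to 20.2 FPKM, with 0 of 3 and 1 of 3 called lower. The part of any of these cell types in the lower levels of the genes was not tested.

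**Figure D3:**
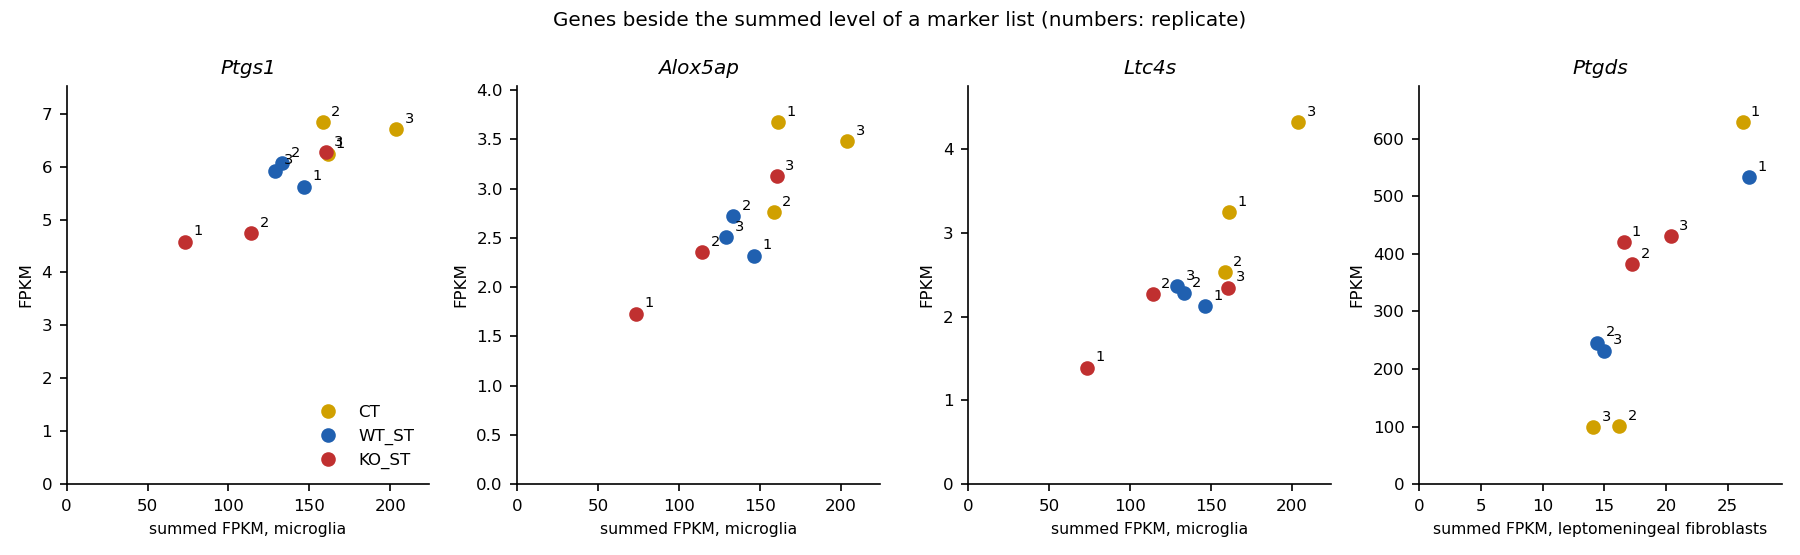
FPKM of Ptgs1, Alox5ap and Ltc4s against the summed FPKM of 10 microglial markers, and of Ptgds against that of 8 leptomeningeal fibroblast markers, with 1 point per mouse labelled by its replicate number. KO_ST replicate 1 had both the lowest microglial sum, 73.1, and the lowest Ptgs1, Alox5ap and Ltc4s, and the highest Ptgds levels were in the CT and WT_ST mice with the highest leptomeningeal sums.

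The genes most like Ptgs1 in pattern over the 9 mice were Dock8 (r = 0.97), Sepp1 (0.96) and Nfam1 (0.96). Those most like Alox5ap were Entpd1 (0.97), Fam96b (0.93) and Inpp5d (0.93), and those most like Ltc4s were Magef1 (0.95), Rnaset2b (0.93) and Cd68 (0.92). Such values were not particular to these genes. The closest gene had an r of 0.94 for Ptges, 0.94 for Ptges2, 0.95 for Ptger3 and 0.92 for Ptger4. Among the 45 pairs of the 10 genes the median r was -0.13, with 3 pairs above 0.7, which were Alox5ap with Ltc4s (0.87), Ptgs1 with Alox5ap (0.79) and Ptgs2 with Ptgds (0.77), and 1 below -0.7, Hpgd with Ptger4 (-0.71). The 250 bases before the RefSeq start of Ptgs1 (GRCm38.p6, chr2:36230176-36230425, plus strand, a start inside the annotated gene) and of Ltc4s (chr11:50238533-50238782, minus strand) are shown as those of the 2 genes called lower in KO_ST against CT. In Ptgs1 the capitals mark a glucocorticoid response half-site (AGAACA), read on the opposite strand, 204 bases before the start, and Ltc4s holds none of the 4 motifs searched. Alox5ap was not matched in the promoter table.
Ptgs1: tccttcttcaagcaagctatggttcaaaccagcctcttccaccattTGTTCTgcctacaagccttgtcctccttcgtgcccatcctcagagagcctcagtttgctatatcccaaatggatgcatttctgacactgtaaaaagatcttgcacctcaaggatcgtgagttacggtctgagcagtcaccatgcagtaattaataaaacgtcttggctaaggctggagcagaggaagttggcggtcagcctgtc
Ltc4s: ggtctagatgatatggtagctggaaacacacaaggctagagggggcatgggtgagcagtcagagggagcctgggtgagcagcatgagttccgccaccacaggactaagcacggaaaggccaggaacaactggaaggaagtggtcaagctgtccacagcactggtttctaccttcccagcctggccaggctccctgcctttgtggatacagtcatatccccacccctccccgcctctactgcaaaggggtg

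Windows of 300 bases, from 250 before to 50 after the start, were found in RefSeq for 9 of the 10 genes and searched on both strands. The half-site AGAACA was in 2 of the 9 (Ptgs1 and Ptges) and in 19.0% of all 32851 windows. The core TGACGT was in 1 (Ptgs2) against 7.51%, the E-box CACGTG in 2 (Ptgs2 and Ptges2) against 7.15%, and the TATA box in 1 (Hpgd) against 13.6%. A match describes letters and not a site in use.

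Of the marker lists, Ptgs2 had its highest r with that of neurons. The r with the mean of 8 neuronal markers (Rbfox3, Snap25, Syt1, Slc17a7, Gad1, Gad2, Tubb3 and Nefl) was 0.87, and 0.95 for deviations from the group means. With the leptomeningeal fibroblast list it was 0.71 and 0.89, and with microglia -0.19 and 0.20. The neuronal sum was 2567 to 3006 FPKM in CT, 3088 to 3343 in WT_ST and 3161 to 3307 in KO_ST, higher in each stressed mouse than in each CT mouse, while 0 of 8 markers were called in any comparison and the median log2 fold changes against CT were 0.13 and 0.17. With 9 activity-regulated genes, among them Fos, Arc, Egr1 and Npas4, r was 0.32, and 0.54 for deviations from the group means, their sum was 117 to 218, 122 to 166 and 141 to 204 FPKM, and 0 of 9 were called in either comparison against CT and 3 of 9, higher, in KO_ST against WT_ST. Genes most like Ptgs2 in pattern were Slc12a7 (r = 0.98), Hspa4 (0.98) and Sacm1l (0.97). The part of neuronal RNA content in the Ptgs2 difference was not tested.

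**Figure D4:**
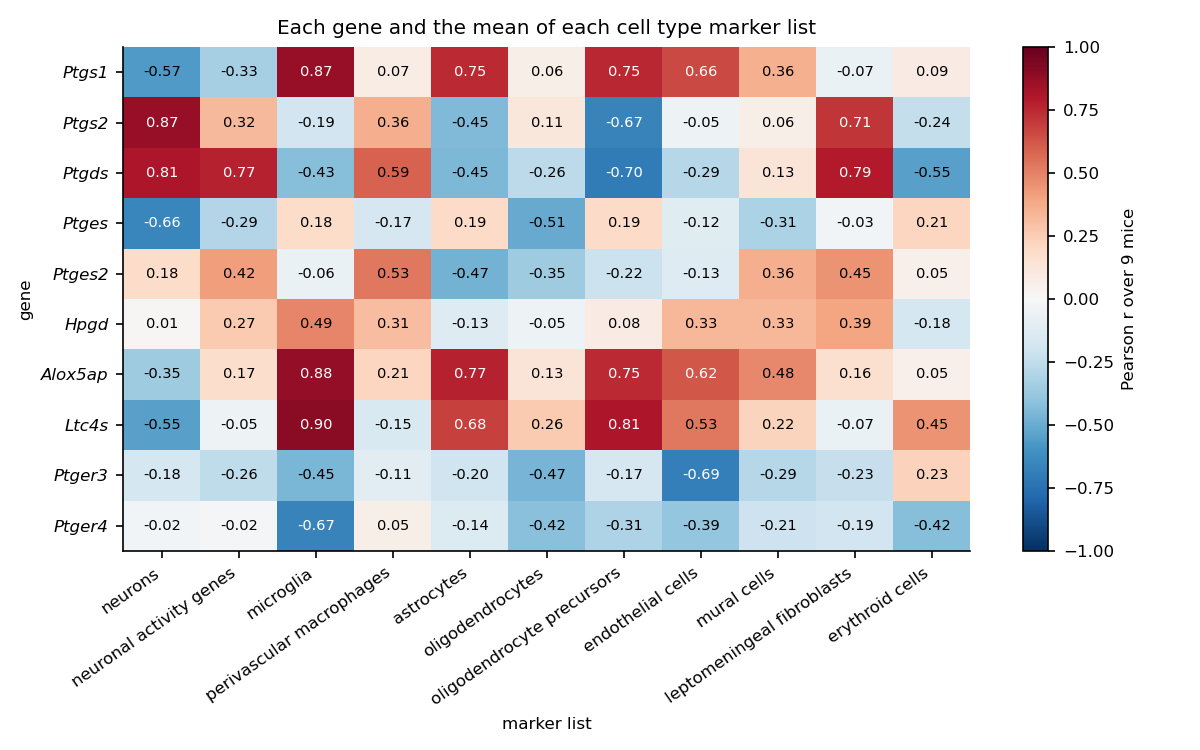
Pearson r over the 9 mice between each gene (rows) and the mean of each marker list (columns) on the quantile-normalized log2(FPKM+1) scale, in colour from -1 to 1 with the value printed. The highest values were 0.90 for Ltc4s, 0.88 for Alox5ap and 0.87 for Ptgs1 with microglia and 0.87 for Ptgs2 with neurons.

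Of the vascular lists, the summed FPKM of 7 endothelial markers was 86.6 to 94.9 in CT, 85.0 to 94.5 in WT_ST and 82.5 to 94.7 in KO_ST, and that of 7 mural cell markers was 63.9 to 65.0, 53.1 to 62.4 and 46.9 to 74.4. Ptges, known from endothelial cells, had an r of -0.12 with the endothelial list, and the members with the highest r to it were Ptgs1 (0.66) and Alox5ap (0.62). In WT_ST against CT, 1 of 7 endothelial and 1 of 7 mural markers were called lower, and in KO_ST against CT 1 and 0. In KO_ST against WT_ST, 1 mural marker was called higher, and of the other lists 1 microglial marker was called lower and 3 activity-regulated genes were called higher. Perivascular macrophage markers (5 genes, of which 3 were tested) summed to 0.867 to 3.74 FPKM over the 9 mice with 0 called against CT, and Hpgd had an r of 0.31 with them and 0.82 for deviations from the group means, beside 0.33 and 0.77 with the mural list. Erythroid markers summed to 82.8 to 775 FPKM over the 9 mice, highest in CT replicate 3, with 0 of the 4 tested called against CT and an r of 0.45 with Ltc4s.

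Ptger3 (chr3:157566821-157644758) and Ptger4 (chr15:5233399-5244187) encode prostaglandin E2 receptors that lower and raise cyclic AMP, respectively. Ptger3 had 1.63, 2.27 and 1.53 FPKM in CT, 1.45, 1.26 and 2.18 in WT_ST, and 2.09, 1.84 and 1.82 in KO_ST. A single CT mouse and a single WT_ST mouse were the highest, and the groups overlapped. WT_ST differed from CT by -0.07 on the log2 scale (95% interval -0.45 to 0.30), KO_ST from CT by 0.09 (95% interval -0.19 to 0.38) and KO_ST from WT_ST by 0.17 (95% interval -0.14 to 0.48). Ptger4 had 0.187, 0.241 and 0.187 FPKM in CT, 0.179, 0.201 and 0.146 in WT_ST, and 0.284, 0.209 and 0.210 in KO_ST, from 22 to 44 reads per mouse. KO_ST lay above WT_ST without overlap, and CT overlapped with both. The log2 fold change of Ptger4 was 0.08 in KO_ST against WT_ST (95% interval -0.07 to 0.22, limma adjusted p = 0.940), on a scale where the pseudocount of 1 is larger than its FPKM. With a pseudocount of 0.1 it was 0.29 (limma adjusted p = 0.938), and with edgeR on the reads it was 0.41 (adjusted p = 0.972).

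The wider pathway list held 49 genes found in the files, of which 31 averaged at least 30 reads, 15 had fewer and 3 had no read in any mouse. Of the 31, 0 were called in WT_ST against CT, 3 in KO_ST against CT and 2 in KO_ST against WT_ST, all of them lower in KO_ST, where 2.03% and 1.05% of all genes tested were called lower in these last comparisons. The median log2 fold change of the list was 0.00332, -0.05 and 0.01. By role, the genes called against CT were 1 of 7 other prostaglandin and thromboxane synthases and 2 of 8 lipoxygenases and leukotriene enzymes, and 0 of 6 genes of arachidonate release, 0 of 3 receptors and 0 of 7 genes of transport and breakdown.

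Tbxas1, thromboxane A synthase, had 0.873, 1.15 and 1.15 FPKM in CT, 0.869, 0.991 and 0.586 in WT_ST, and 0.761, 0.510 and 0.696 in KO_ST. Each KO_ST mouse was below each CT mouse, as for 7.88% of all genes tested, and the log2 fold change was -0.28 (standard error 0.0930, limma adjusted p = 0.499). Alox12b, an epidermal lipoxygenase, had 3.40, 3.67 and 2.53 FPKM in CT, 4.07, 3.50 and 2.59 in WT_ST, and 1.95, 2.59 and 2.03 in KO_ST. Its lowest CT mouse overlapped with KO_ST, and WT_ST and KO_ST met at 2.59. It fell in KO_ST by 0.36 against CT (standard error 0.136, limma adjusted p = 0.501) and by 0.44 against WT_ST (standard error 0.144, limma adjusted p = 0.801) on the log2 scale. Aloxe3, which acts on the product of Alox12b, had 2.71, 3.89 and 2.89 FPKM in CT, 2.31, 2.79 and 2.71 in WT_ST, and 2.55, 2.29 and 1.89 in KO_ST. Each KO_ST mouse was below each CT mouse, again beside 7.88% of all genes, and Aloxe3 fell in KO_ST against CT by 0.32 (standard error 0.135, limma adjusted p = 0.525). Pla2g5, a secreted phospholipase, had 1.42, 0.607 and 1.15 FPKM in CT, 1.12, 0.988 and 1.35 in WT_ST, and 0.927, 0.782 and 0.667 in KO_ST. It fell in KO_ST against WT_ST by 0.27 (standard error 0.0926, limma adjusted p = 0.814), where the groups did not overlap, and CT spanned both. Of all genes, 5.97% were lower without overlap in that comparison. Alox5, the lipoxygenase that Alox5ap serves, was measured at 0.138 to 0.385 FPKM over the 9 mice, and differed from CT by 0.02 on the log2 scale in WT_ST (limma adjusted p = 0.947) and by -0.11 in KO_ST (limma adjusted p = 0.636).

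**Figure D5:**
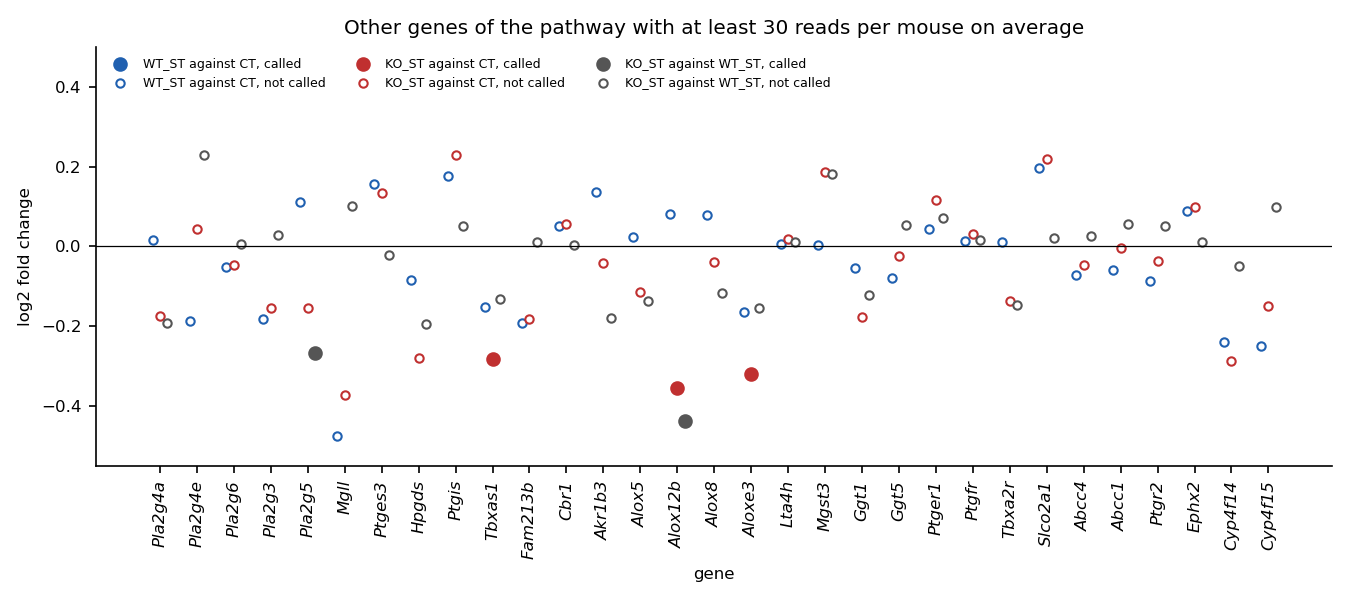
Log2 fold change of quantile-normalized log2(FPKM+1) of the 31 other pathway genes with a mean of at least 30 reads, in the 3 comparisons, with filled points for called genes (p under 0.05 before adjustment, fold above 1.2). The filled points, Tbxas1, Alox12b (in 2 comparisons), Aloxe3 and Pla2g5, are all below 0.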

How the data were processed

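RNA from the mPFC of 9 mice was sequenced after a strand-marking library preparation, with 1 library per mouse. The authors deposited, per gene and mouse, the unnormalized count of reads. Beside it, the authors deposited FPKM, scaled for transcript length and depth. The submitters' processing notes name HISAT2 2.1.0, Bowtie2 2.3.4.1 and StringTie 1.3.4d and the build mm10. The strand setting of the counting is not given in the sources used here.

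FPKM + 1 was log2-transformed and quantile normalized across all mice. Each pair of groups was fitted alone in limma 3.58.1 (R 4.3.3, trended eBayes), with the scale and thresholds of the study. The study tested each gene alone with an unmoderated test, to which the ordinary linear model tried here is closest. Genes with a mean under 30 reads were dropped before testing, and p-values were Benjamini-Hochberg adjusted over 14370 genes. Other settings were an ordinary linear model, edgeR 4.0.16 and DESeq2 1.42.0 on the counts, a pseudocount of 0.1, other filters and normalizations, and leaving out each mouse.

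The 10 genes, the pathway list and the marker lists were chosen with earlier results of these data known. Genes named are these 10, Fkbp5, pathway genes called in a comparison, the 3 genes with the highest Pearson r to a member over the 9 mice, and defining markers of a list. Of the marker lists, 1 microglial and 1 oligodendrocyte gene are not reported here and entered no sum or correlation. Alox5, Fam213b, Mgll, Mgst3, Pla2g4e, Ptgis and Slco2a1 were added after their values were seen. Positions and promoter windows are those of RefSeq (GRCm38.p6). Plots were made in matplotlib 3.10.9 (Python 3.11.15).

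Mice of different groups that carry the same replicate number did not deviate together from their group means (mean r = -0.0101, range -0.259 to 0.234 over 9 pairs), and the numbers were not treated as pairs. The numbers are those of the sample titles. The deposited files carry partly different mouse numbers, with which no pairing was tried.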

Additional observations from a re-analysis of the deposited data

How the results depend on the processing

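With 3 mice per group, each call on these genes was lost in at least 1 fit with a mouse left out. There were 22 such losses over all of these fits. The calls of Alox5ap and Ltc4s also rest on few reads (mean 144 and 86.3 per mouse). Of the log2 fold changes under settings other than leaving out a mouse, 314 kept their direction and their side of the threshold, 12 lost the call, 1 (Alox5ap in KO_ST against CT, in 1 fit over 9 mice) gained it and none reversed. An ordinary linear model without moderated variance called 0, 0 and 0 of the 10 genes in WT_ST against CT, KO_ST against CT and KO_ST against WT_ST, and 164, 248 and 138 of all genes. Without a filter on reads, 1 of the 10 was called in KO_ST against CT, with Ptgs1 lost (-0.27, limma adjusted p = 0.568). Over all genes, 355, 512 and 287 were called by limma with a pseudocount of 1. With a pseudocount of 0.1, 544 were called in WT_ST against CT and 445 in KO_ST against WT_ST. In WT_ST against CT, edgeR called 535 with TMM and 535 with RLE normalization and DESeq2 552, of which 33.1%, 33.1% and 34.2% were higher, beside 46.8% in limma. In limma without quantile normalization it was 34.1% of 369, and in KO_ST against CT 28.5% of 519 beside 43.2%. Without a filter, edgeR called 700, 843 and 544 in the 3 comparisons. With one mouse left out, between 0 and 2 of the 10 were called in WT_ST against CT, 0 and 3 in KO_ST against CT and 0 and 2 in KO_ST against WT_ST, and between 277 and 542, 410 and 734, and 245 and 477 of all genes. The cause of these shifts was not tested.

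With one mouse left out, 12 of 180 log2 fold changes reversed, all of genes that were not called in that comparison. In WT_ST against CT, Ptges2 ranged from -0.023 to 0.043, Ptger3 from -0.22 to 0.051 and Ptger4 from -0.043 to 0.0027. In KO_ST against CT, Ptges2 ranged from -0.0043 to 0.066. In KO_ST against WT_ST, Ptges ranged from -0.030 to 0.11, Ptges2 from -0.020 to 0.059, Alox5ap from -0.21 to 0.075 and Ltc4s from -0.21 to 0.023. Calls gained in this way, beside those of Ptgds, were Ptgs2 in KO_ST against CT without CT replicate 1 (0.27, limma adjusted p = 0.415), Alox5ap there without CT replicate 2 (-0.41, limma adjusted p = 0.804) or KO_ST replicate 3 (-0.47, limma adjusted p = 0.461, beside -0.19 and no call without KO_ST replicate 1), and in KO_ST against WT_ST Ptgs1 without KO_ST replicate 3 (-0.26, limma adjusted p = 0.484) and Ptger3 without WT_ST replicate 3 (0.31, limma adjusted p = 0.805). Replicate numbers did not pair the mice, and with the number as a replicate block 2, 2 and 1 of the 10 genes and 399, 562 and 279 of all genes were called, with Alox5ap lost in WT_ST against CT (limma adjusted p = 0.732).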

Other observations

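Some genes of the wider pathway differed by less than the fold threshold or varied mainly by mouse. Mgst3, a microsomal glutathione transferase and with a mean of 106 FPKM the highest of the list, had 105, 102 and 99.2 FPKM in CT, 103, 97.7 and 105 in WT_ST, and 116, 122 and 108 in KO_ST. Each KO_ST mouse was above each other mouse, at log2 fold changes of 0.19 against CT (limma adjusted p = 0.499) and 0.18 against WT_ST (limma adjusted p = 0.717). Of all genes tested, 15.8% did not overlap between KO_ST and CT in either direction, and 4.99% were higher in KO_ST than in WT_ST without overlap. Fam213b, a prostaglandin F synthase, had 63.3, 67.5 and 67.0 FPKM in CT, 62.0, 55.4 and 56.0 in WT_ST, and 58.3, 58.8 and 56.6 in KO_ST. Each stressed mouse was below each CT mouse, at log2 fold changes of -0.19 in WT_ST (limma adjusted p = 0.597) and -0.18 in KO_ST (limma adjusted p = 0.458). Of all genes tested, 6.46% were lower without overlap in WT_ST against CT and 7.88% in KO_ST against CT. Pla2g4e, a cytosolic phospholipase, had a log2 fold change of 0.23 in KO_ST against WT_ST (limma adjusted p = 0.696).

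Mgll, the lipase that releases arachidonic acid from the endocannabinoid 2-arachidonoylglycerol, had 71.6, 71.3 and 76.8 FPKM in CT, 71.0, 69.7 and 29.8 in WT_ST, and 68.8, 35.7 and 73.6 in KO_ST. WT_ST replicate 3 and KO_ST replicate 2 stood apart from the other 7 mice, with 5237 and 6387 reads against 11767 to 17160.

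Ptgis, prostacyclin synthase, had 0.767, 0.206 and 0.131 FPKM in CT, 0.881, 0.475 and 0.217 in WT_ST, and 0.529, 0.478 and 0.642 in KO_ST. The mice highest in Ptgds, CT replicate 1 and WT_ST replicate 1, were also the highest in Ptgis. Slco2a1, a prostaglandin transporter, had 0.366, 0.112 and 0.0989 FPKM in CT, 0.253, 0.425 and 0.370 in WT_ST, and 0.303, 0.453 and 0.339 in KO_ST. CT replicates 2 and 3, the lowest mice in Ptgds, were also the lowest in Slco2a1. At the other end the order differed, as WT_ST replicate 1 was the lowest of the stressed mice in Slco2a1 and KO_ST replicate 2 the highest of all. The log2 fold changes of Slco2a1 against CT were 0.20 in WT_ST (limma adjusted p = 0.667) and 0.22 in KO_ST (limma adjusted p = 0.539).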
